A study of Mus musculus with 9 samples.

Results

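The amino acid response genes, the cytosolic tRNA synthetases and a set of endoplasmic reticulum (ER) stress genes were examined in mouse epiblast stem cells. The 32 genes were chosen by name and with earlier results of these data known. They were 9 genes of the ATF4 programme, 5 of serine, glycine and folate metabolism, 2 of proline synthesis, 12 cytosolic tRNA synthetases and 4 of ER stress. All were present on the array, with 56 probes under the gene's own symbol and 3 more under older names, and 50 of these 59 probes were detected on at least 3 of the 9 arrays. They cover 31 of the 32 genes, out of 13204 genes tested. Psph, the last enzyme of serine synthesis, had 1 probe that was detected on no array and is not described further.

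Epiblast stem cells are pluripotent cells that resemble the epiblast after implantation. All cells were male dsRed2 EpiSCs on a 129 background, grown with activin A (20 ng/ml) and bFGF (10 ng/ml). Each of 3 groups had 3 biological replicates: untreated cells sorted as dsRed2 negative, untreated cells sorted as dsRed2 positive, and cells given 3 µM CHIRON for 48 h. The labels print only CHIRON, a short name usually meant for the GSK3 inhibitor CHIR99021, which stabilises β-catenin and so turns on Wnt target genes. What drives dsRed2 is not named, and the text leaves it unsettled whether treated cells went through the sorter, so effects of treatment and of sorting cannot be told apart when treated cells are compared. Whether replicates were separate cultures or passages is not said either, and p-values set each difference against the spread between these samples within groups. In whole-population RNA, fewer cells that express a gene and less RNA of it per cell cannot be told apart.

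When amino acids run short or unfolded proteins gather in the ER, kinases phosphorylate the initiation factor eIF2α. General translation then slows while the transcription factor ATF4 is made. ATF4, together with C/EBP partners, binds composite C/EBP-ATF elements and raises genes for amino acid synthesis, amino acid import and tRNA charging, along with feedback genes such as Ddit3 and Trib3. ER stress has 2 further branches: the factor XBP1, made active by IRE1, and ATF6, both of which raise ER chaperones and degradation factors. Pluripotent stem cells in culture divide fast and have a high demand for amino acids.

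Signals were brought to a common distribution across arrays and put on a log2 scale; these values are called normalized log2 signal below. The arrays had median raw signals of 95.1 to 109 and detected 36.7% to 41.1% of their probes. Treated replicate 3 stood apart from the other treated arrays: over 1321 bright genes the SD of its log2 differences from them was 0.330 and 0.337, against 0.121 between them. All 6 pluripotent epiblast markers were detected on every array of all 3 groups, although Nanog, Pou5f1 and Sox2 fell by 3.46, 1.84 and 0.96 after CHIRON while Fgf5 and Otx2 rose by 1.83 and 1.22. Their summed level (linear, background-corrected) spanned 11797 to 12732 in negative, 12064 to 14813 in positive and 7205 to 12888 in treated cells. Of 8 fibroblast and feeder markers, Col1a2, Col3a1, Postn and Dcn did not pass the detection filter, and the sum over the other 4 spanned 1010 to 1976, 758 to 858 and 1483 to 8508 in the same order. Of 8 visceral and parietal endoderm markers, Afp, Ttr, Cubn and Lamb1 did not pass, and the other 4 summed to 2331 to 2921, 1672 to 2170 and 2428 to 5802. Of 6 trophoblast markers, Elf5 and Hand1 did not pass, and the other 4 summed to 195 to 280, 133 to 178 and 522 to 713. These sums were higher in treated than in positive cells for the 3 non-epiblast lists, but they follow the brightest genes. Against negative cells Col1a1 rose by 2.55, Thy1 fell by 2.40, and Bgn and Acta2 were not called. Acta2 read 12.86 on treated replicate 3. Amn and Apoa1 rose by 1.39 and 3.61, while Dab2 and Sparc, the brightest endoderm marker, were not called. The 4 trophoblast markers rose by 0.69 to 2.16. The part of these cell types in the differences described here was not tested.

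After 48 h of CHIRON, most of the amino acid response genes lay below their level in dsRed2 negative cells. Of the 31 genes tested, 20 fell and 1 rose at an adjusted p below 0.05 (limma over all genes, Benjamini-Hochberg), where 19.9% of all 13204 genes tested fell and 20.1% rose. The median log2 difference of the 31 was −0.67, against −0.01 for all genes. Because the genes were chosen with earlier results known, these gaps to all genes are a description. All but Hspa5 were detected on arrays of every group, so the detection filter did not select them by 1 group. By role, 7 of 9 ATF4 programme genes fell, 3 of 4 serine and folate genes, 1 of 2 proline genes, 7 of 12 synthetases and 2 of 4 ER stress genes, and Xbp1 rose. The deviations of the 31 genes from the mean of the negative arrays had medians of −0.60, −0.57 and −0.82 on treated replicates 1, 2 and 3, and between −0.24 and 0.27 on the 6 sorted arrays. Without treated replicate 3, 19 genes fell and 1 rose and the median was −0.62.

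**Figure D1:**
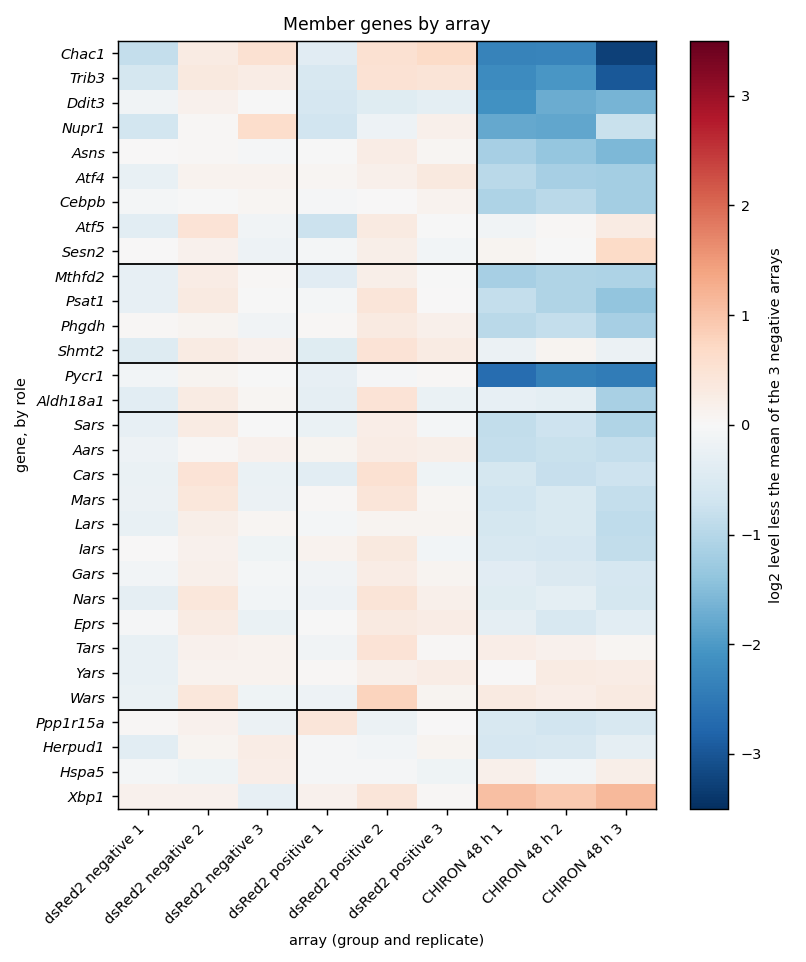
Normalized log2 signal of the 31 genes on each of the 9 arrays, as the difference from the mean of the 3 dsRed2 negative arrays (colour, log2); rows are genes grouped by role and columns are arrays. The 3 treated columns are blue for most rows, with array medians of −0.60, −0.57 and −0.82, while Xbp1 in the last row is red.

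The counts depended in part on how arrays were scaled. Centring each array on its median, in place of making the distributions equal, moved the median of all genes to 0.14. Then 12 of the 31 genes fell and 1 rose, where 1282 of all 13204 genes fell and 2817 rose. In the main analysis 2629 of all genes fell and 2651 rose. Of all calls, 68.7% were rises with median centring, against 50.2% in the main analysis. Less the median of all genes, the members' median was −0.60 with median centring and −0.66 in the main analysis. Of the 7 synthetases that fell, only Aars was called with median centring. The median of the 12 synthetases was then −0.43, and less the median of all genes it was −0.58, against −0.57 in the main analysis. Against negative cells, 13 genes were called under each of 19 alternative analyses: Asns, Ddit3, Trib3, Chac1, Atf4, Cebpb, Nupr1, Psat1, Phgdh, Mthfd2, Pycr1, Aars and Xbp1. In the main analysis 5280 of all 13204 genes were called, and how many of them stayed called under every alternative was not counted.

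The DNA around the start of these genes is shown because many of them share 1 short sequence. RefSeq promoter sequences (GRCm38.p6, 250 bases before to 50 after the start) were matched for 28 of the 32 genes. The core of the C/EBP-ATF element, TGATGNAA, was searched on both strands. It was present in 11 of the 28 (39.3%), against 2.66% of 8643 tested genes with a promoter entry and 3.97% of all 32851 entries. Many of the 28 were listed because they are known ATF4 targets, so this excess was in part fixed by the choice of genes. For each of these genes 1 site is printed, in the direction of the element, with 11 bases on either side and the element in capitals.
Asns, chr6:7693214-7693243, - strand: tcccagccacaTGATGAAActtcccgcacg
Trib3, chr2:152344028-152344057, + strand: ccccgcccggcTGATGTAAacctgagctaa
Chac1, chr2:119351038-119351067, - strand: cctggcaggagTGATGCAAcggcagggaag
Nupr1, chr7:126625562-126625591, + strand: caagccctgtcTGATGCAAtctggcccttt
Pycr1, chr11:120643833-120643862, - strand: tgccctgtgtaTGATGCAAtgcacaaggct
Aars, chr8:111033840-111033869, - strand: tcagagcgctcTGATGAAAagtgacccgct
Gars, chr6:55037960-55037989, - strand: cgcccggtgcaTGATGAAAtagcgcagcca
Iars, chr13:49682126-49682155, - strand: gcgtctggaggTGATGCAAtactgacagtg
Tars, chr15:11399655-11399684, + strand: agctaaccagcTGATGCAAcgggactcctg
Yars, chr4:129189895-129189924, + strand: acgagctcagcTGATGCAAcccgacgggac
Herpud1, chr8:94386306-94386335, - strand: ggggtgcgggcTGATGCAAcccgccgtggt
The printed sites lay from base −193 (Chac1) to base 22 (Trib3) relative to the start. Their central letter was C in most and A in Asns, Gars and Aars; in Trib3 it was T. Of the 18 genes with a promoter sequence that fell against negative cells, 9 held the element, as did 2 of 8 that were not called. Those 2 were Tars and Yars, whose element had the same core letters as those of Chac1, Nupr1 and Pycr1. The signal of Yars lay near background. Asns and Pycr1 are shown over the whole 250 bases before the start, in the direction of the gene, because Asns is the textbook gene of this response and Pycr1 had the smallest p of the 31.
Asns upstream, chr6:7693210-7693459, - strand: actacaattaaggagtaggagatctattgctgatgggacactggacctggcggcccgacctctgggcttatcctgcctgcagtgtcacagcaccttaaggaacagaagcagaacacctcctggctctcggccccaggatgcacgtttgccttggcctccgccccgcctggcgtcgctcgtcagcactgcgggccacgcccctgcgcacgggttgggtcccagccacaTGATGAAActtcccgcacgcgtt
Pycr1 upstream, chr11:120643749-120643998, - strand: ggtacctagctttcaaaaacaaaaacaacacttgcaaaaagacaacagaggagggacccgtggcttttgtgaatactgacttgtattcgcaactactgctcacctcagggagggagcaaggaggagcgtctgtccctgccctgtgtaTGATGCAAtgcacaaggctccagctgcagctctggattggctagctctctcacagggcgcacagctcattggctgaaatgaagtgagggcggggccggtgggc
In Asns the element began 23 bases before the start, and in Pycr1 103 bases before it. A match to these letters is a description of the sequence and not evidence of binding. The only other motif searched was the ER stress element, CCAAT and CCACG separated by any 9 bases, on both strands. Among the 28 genes it was present only in Hspa5, against 0.119% of all promoter entries.

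In the ATF4 programme 7 of 9 genes fell, with a list median of −1.36. Chac1 encodes an enzyme that breaks down glutathione and is a sensitive marker of ATF4 and CHOP activity. It lay at 8.70, 9.81 and 10.07 on negative replicates 1, 2 and 3, at 9.12, 10.07 and 10.19 on the positive arrays and at 7.19, 7.22 and 6.26 on the treated arrays. All 3 treated arrays were below all 6 sorted arrays, and Chac1 fell by 2.64 ± 0.40 (log2, ± SE, n = 3 per group; 6.23-fold; limma adjusted p = 0.000477). Trib3, a pseudokinase that restrains ATF4 and AKT signalling, measured 7.93, 8.86 and 8.80 in negative, 7.97, 9.04 and 8.97 in positive and 6.34, 6.50 and 5.56 in treated cells. It fell by 2.40 ± 0.35 (adjusted p = 0.000395), with no overlap between treated and sorted arrays, and its other passing probes differed by −1.54 and −1.60 but were detected on 2 and 0 treated arrays. Without background correction Trib3 differed by −1.48. For both genes treated replicate 3 was the lowest array.

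Ddit3 encodes CHOP, a transcription factor induced by ATF4 and linked to cell death under prolonged stress. Its values were 8.39, 8.69 and 8.50 in negative, 7.94, 8.11 and 8.18 in positive and 6.40, 6.78 and 6.91 in treated cells, and it fell by 1.83 ± 0.15 (adjusted p = 1.3e-05). The treated arrays were lowest, the negative arrays highest and the positive arrays between them, with no overlap between any pair of groups. The difference between positive and negative cells was not called (limma adjusted p = 0.9998). How many of all genes separate in this way is not given here. A second probe differed by −1.59, and without background correction the difference was −1.21. Nupr1, a small stress-induced chromatin protein gene, was at 7.08, 7.77 and 8.35 in negative, 7.06, 7.56 and 7.91 in positive and 5.94, 5.93 and 6.95 in treated cells. It fell by 1.46 ± 0.36 (adjusted p = 0.00815), and here treated replicate 3 was the highest of its group, close to the lowest sorted array. The difference of Nupr1 was −0.83 without background correction.

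Asns, asparagine synthetase, stood at 12.21, 12.22 and 12.14 in negative and 12.17, 12.44 and 12.26 in positive cells. On the treated arrays it read 11.02, 10.85 and 10.61 and fell by 1.36 ± 0.13 or 2.57-fold against negative cells (adjusted p = 3.48e-05), and its other probes differed by −1.65 and −1.61. The sorted arrays were tightly grouped and the treated arrays lay more than 1 log2 unit lower. The mRNA of Atf4 itself read 10.65, 11.01 and 11.03 in negative, 10.96, 11.07 and 11.24 in positive and 9.97, 9.75 and 9.72 in treated cells. It fell by 1.09 ± 0.14 (adjusted p = 0.000222), again without overlap, and a second probe differed by −0.93. ATF4 is controlled in large part at translation, which these arrays do not measure. Cebpb, a C/EBP factor that partners with ATF4, fell by 1.07 ± 0.12 (adjusted p = 6.37e-05).

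The remaining ATF4 programme genes, Atf5 and Sesn2, were not called. Atf5, a related factor translated under the same stress, differed by 0.07 ± 0.28 (adjusted p = 0.868), and its treated arrays lay within the range of the sorted arrays. Sesn2, which encodes a leucine-sensing inhibitor of mTORC1, differed by 0.24 ± 0.18 (adjusted p = 0.333), with treated replicate 3 at 7.63 above the others.

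**Figure D2:**
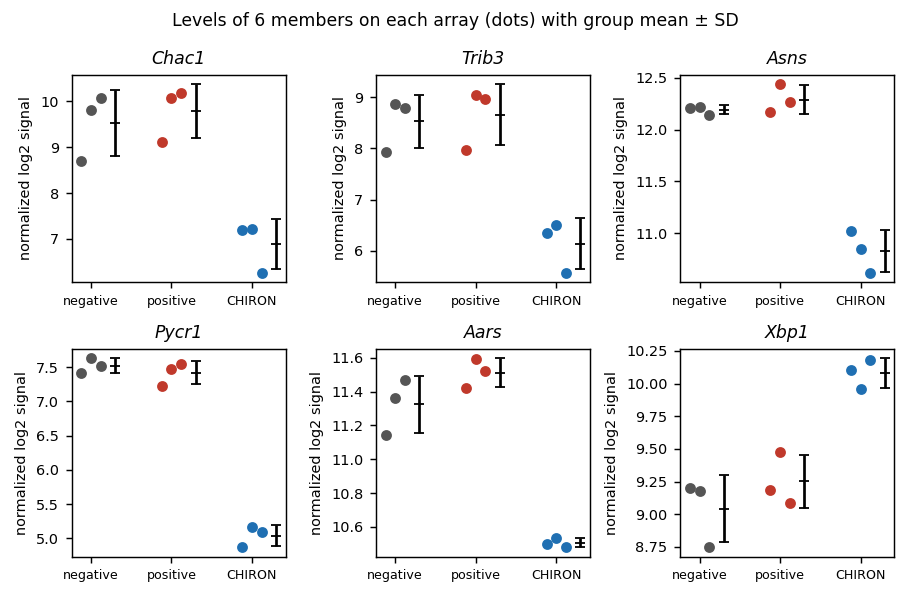
Normalized log2 signal (vertical axis, a separate scale for each gene) of 6 genes on each array (dots) with the mean ± SD of each group of 3. Chac1, Trib3, Asns, Pycr1 and Aars are lower on all 3 treated arrays than on all 6 sorted arrays, and Xbp1 is higher on all 3.

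Serine synthesis starts from a glycolytic intermediate and runs through PHGDH, PSAT1 and PSPH; SHMT2 and MTHFD2 then pass its carbon to folate in mitochondria. Phgdh was at 9.86, 9.90 and 9.68 in negative, 9.84, 10.13 and 9.99 in positive and 8.88, 8.97 and 8.66 in treated cells and fell by 0.98 ± 0.13 (adjusted p = 0.000257). Psat1 was at 11.43, 12.02 and 11.71 in negative, 11.64, 12.14 and 11.75 in positive and 10.88, 10.65 and 10.35 in treated cells and fell by 1.09 ± 0.20 (adjusted p = 0.00148). Both enzymes thus lay lower on every treated array than on any sorted array. Mthfd2 was at 10.96, 11.52 and 11.30 in negative, 10.87, 11.46 and 11.26 in positive and 10.11, 10.20 and 10.17 in treated cells, and fell by 1.10 ± 0.18 (adjusted p = 0.000721). Its treated arrays were within 0.1 of each other, and a second probe differed by −1.02. Shmt2, the enzyme between them, differed by −0.10 ± 0.25 (adjusted p = 0.792) and its groups overlapped; a second probe differed by −0.49 and was not called.

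Of the proline synthesis genes, Pycr1 fell and Aldh18a1 was not called. Pycr1, which makes proline in mitochondria, was at 7.42, 7.63 and 7.52 in negative, 7.23, 7.47 and 7.55 in positive and 4.87, 5.16 and 5.08 in treated cells. It fell by 2.49 ± 0.13, or 5.6-fold (adjusted p = 4.93e-07). In the analysis without background correction the difference was −1.11, and in the deposited log2 values −1.21. Its spread within each group was small next to the gap between treated and sorted arrays. Aldh18a1, which makes the precursor of proline and ornithine, differed by −0.59 ± 0.27 (adjusted p = 0.114). Treated replicate 3 alone was low for it, at 7.55 against 8.40 and 8.33 on the other treated arrays. The difference between the enzymes was not tested.

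Cytosolic tRNA synthetases load each tRNA with its amino acid. Of the 12 listed, 7 fell against negative cells and 5 were not called, with a median difference of −0.58 and a range from −0.88 to 0.28. Sars, the seryl enzyme, was at 9.61, 10.21 and 9.90 in negative, 9.69, 10.13 and 9.83 in positive and 9.04, 9.17 and 8.86 in treated cells, and fell by 0.88 ± 0.18 (adjusted p = 0.00264). Aars, the alanyl enzyme, was at 11.14, 11.36 and 11.47 in negative, 11.42, 11.59 and 11.52 in positive and 10.50, 10.53 and 10.48 in treated cells, and fell by 0.82 ± 0.12 (adjusted p = 0.000421). The treated arrays of Aars were within 0.05 of each other and all below the sorted arrays. Mars, the methionyl enzyme, was at 8.55, 9.15 and 8.54 in negative, 8.77, 9.16 and 8.82 in positive and 8.04, 8.20 and 7.92 in treated cells, and fell by 0.69 ± 0.18 (adjusted p = 0.012). Cars, the cysteinyl enzyme, was at 5.11, 5.83 and 5.12 in negative, 4.98, 5.88 and 5.21 in positive and 4.73, 4.54 and 4.63 in treated cells. It was detected on 1 of 3 treated arrays, so its difference of −0.72 ± 0.24 (adjusted p = 0.0373) rests in part on values near background; without background correction it was −0.19 and was not called. Leaving out negative replicate 2, positive replicate 3 or any treated array also ended the call, with −0.48 without negative replicate 2.

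The leucyl, isoleucyl and glycyl enzyme genes Lars, Iars and Gars fell by 0.67, 0.66 and 0.49 (adjusted p = 0.00514, 0.00541 and 0.0142). Without negative replicate 2 the difference of Gars was −0.41 and was not called (adjusted p = 0.0525). Further probes of Lars differed by −0.92 and −0.82, and a further probe of Iars by −0.82. Eprs, which charges glutamate and proline tRNAs, and Nars, the asparaginyl enzyme, differed by −0.42 ± 0.15 and −0.46 ± 0.21 and missed the threshold (adjusted p = 0.0537 and 0.0982). In both, all 3 treated arrays were below all 6 sorted arrays, for Nars only narrowly (9.02 on treated replicate 2, 9.04 on negative replicate 1). Eprs was called without negative replicate 3 (−0.54) and Nars without negative replicate 1 (−0.63). Tars, Wars and Yars, the threonyl, tryptophanyl and tyrosyl enzymes, differed by 0.16 ± 0.17, 0.28 ± 0.24 and 0.18 ± 0.14 and were not called, with treated arrays overlapping the sorted arrays. Yars read only 4.61 to 5.16 over all arrays and was detected on 2 of 3 negative arrays. The lowest detected signals of the arrays were 4.61 to 4.76, so a fall of Yars would be hard to measure. The other 3 passing probes of Wars differed by between −0.32 and −0.20, opposite in sign to the brightest probe, and none was called.

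Synthetase genes outside this list were counted in the same way, where 19.9% of all genes fell and 20.1% rose. Of 11 other cytosolic synthetase and scaffold genes, 1 rose and 1 fell, with a median of 0.08. The arginyl enzyme gene Rars rose by 0.62 ± 0.17 (adjusted p = 0.0134) and the valyl enzyme gene Vars fell by 0.51 ± 0.15 (adjusted p = 0.0185). The scaffold gene Aimp2 and the phenylalanyl subunit gene Farsa differed by 0.35 ± 0.14 and 0.36 ± 0.16 (adjusted p = 0.0679 and 0.101). Of 14 mitochondrial synthetase genes tested, 3 fell and 1 rose, with a median of −0.16. The falls lie close to the share of all genes. Vars2 and Ears2 fell by 0.74 and 0.60 (adjusted p = 0.00132 and 0.0141), and Wars2, detected on 1 negative array, rose by 1.13 ± 0.19 (adjusted p = 0.000796). With median centring the median of the mitochondrial genes was 0.07 and that of the other cytosolic genes 0.22, while the median of all genes was 0.14. Less the median of all genes, they were −0.07 and 0.08 there and −0.16 and 0.09 in the main analysis. TGATGNAA was present in 5 of the 8 listed synthetases that had a promoter entry. It was present in 0 of 8 promoters of the other cytosolic genes and in 0 of 12 of the mitochondrial genes. Those counts of 0 lie near the share of all tested genes, 2.66% of 8643. The lists were chosen with earlier results known, and the difference between them was not tested.

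**Figure D3:**
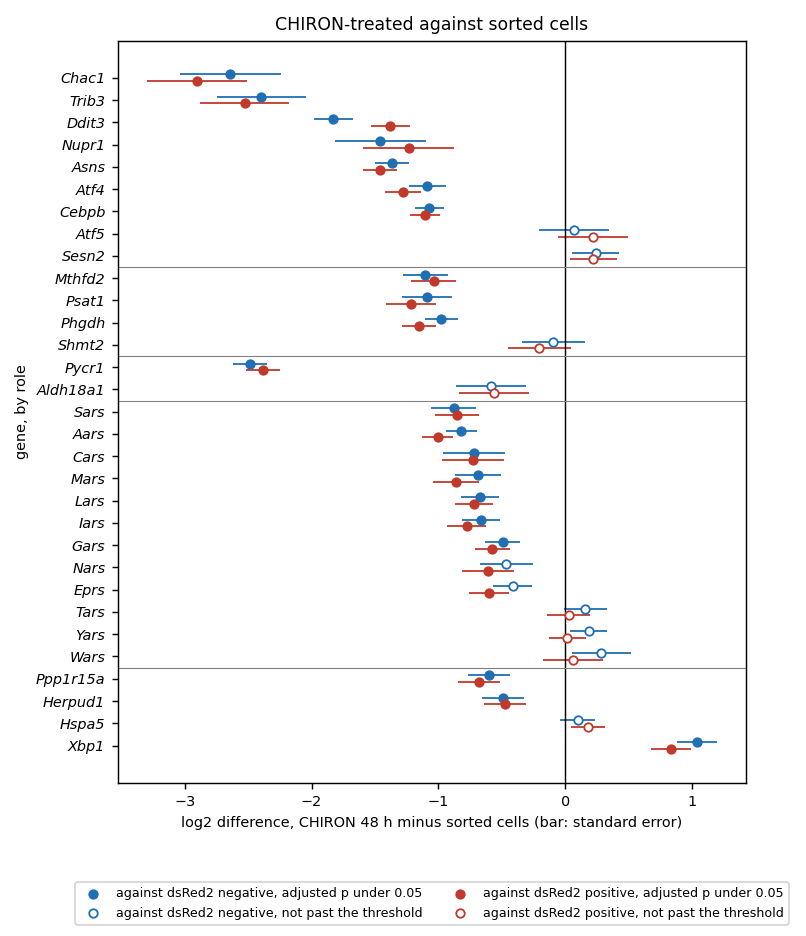
Log2 difference of each of the 31 genes (horizontal axis, ± SE from limma) between CHIRON-treated cells and dsRed2 negative (blue) or dsRed2 positive (red) cells; filled points have an adjusted p below 0.05. The points furthest left are those of Chac1, at −2.64 and −2.90, and Xbp1 is the gene with filled points to the right of 0.

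Of the 4 ER stress genes, Xbp1 rose, Ppp1r15a and Herpud1 fell and Hspa5 was not called. Xbp1, the transcription factor gene of the IRE1 branch, was at 9.20, 9.18 and 8.75 in negative, 9.19, 9.48 and 9.09 in positive and 10.10, 9.96 and 10.18 in treated cells. It rose by 1.04 ± 0.16 (adjusted p = 0.000523), and all treated arrays were above all sorted arrays. Spliced, active and unspliced forms of its mRNA were not told apart here. Ppp1r15a, the stress-induced phosphatase subunit that restores translation, was at 8.29, 8.41 and 8.05 in negative, 8.67, 8.05 and 8.27 in positive and 7.70, 7.57 and 7.68 in treated cells. It fell by 0.60 ± 0.17 (adjusted p = 0.0145), without overlap, and by 0.52 without negative replicate 2 (adjusted p = 0.0517). Herpud1, a factor of ER-associated degradation, was at 8.94, 9.41 and 9.57 in negative, 9.26, 9.22 and 9.40 in positive and 8.71, 8.74 and 9.0 in treated cells. It fell by 0.49 ± 0.17 (adjusted p = 0.0369), treated replicate 3 overlapped negative replicate 1, and a second probe differed by −0.62. Its call was lost when negative replicate 2 or 3, positive replicate 3 or treated replicate 1 or 2 was left out, with −0.36 at the least. Hspa5, the ER chaperone BiP, had 1 probe, detected on 1 negative, 0 positive and 2 treated arrays, so its difference of 0.10 ± 0.14 compares values near background.

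Other ER genes were examined in the same arrays. Of 21 listed genes for ER chaperones, degradation and stress sensors, 15 were tested. The sensor genes Ern1 and Atf6 were not among them. Of the 15, 6 rose and 0 fell at the adjusted threshold by limma (median 0.32), where 20.1% of all genes rose and 19.9% fell. The median was 0.20 in the deposited values and 0.19 without background correction, again with 6 called as higher. Against positive cells 7 rose and 0 fell, with a median of 0.08, where 20.5% of all genes rose and 20.5% fell. Sdf2l1, a luminal co-chaperone partner, rose by 1.25 ± 0.23 (adjusted p = 0.00178), Dnajb11, a BiP co-chaperone, by 0.97 ± 0.16 (adjusted p = 0.000895), and Pdia3, a disulfide isomerase, by 0.95 ± 0.17 (adjusted p = 0.00159). Syvn1, the ubiquitin ligase of ER-associated degradation, rose by 0.70 ± 0.13 (adjusted p = 0.00152). Their promoters held the ER stress element in 6 of 14 and TGATGNAA in 0 of 14. Hyou1, Edem1 and Dnajb9 differed by −0.02, 0.02 and 0.05 and were not called; these 3 were named after their values were seen.

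Further ATF4 targets, listed apart from the members, included transporters and secreted factors. Of 16 tested, 11 fell and 0 rose, with a median of −0.67, where 19.9% of all genes fell and 20.1% rose. Gdf15 and Fgf21 were detected on 0 treated arrays and passed the detection filter through the sorted arrays alone; of the other 14, 9 fell and 0 rose, with a median of −0.65. With median centring 6 of the 16, Gdf15 and Fgf21 included in the list, fell and 0 rose. Of all 13204 genes, 1282 then fell and 2817 rose. The median of the 16 was −0.56, or −0.70 less the median of all genes. The cationic amino acid transporter gene Slc7a3 was at 11.89, 11.69 and 11.74 on the negative and 7.95, 8.0 and 7.07 on the treated arrays and fell by 4.10 ± 0.21 (adjusted p = 4.05e-07). Gdf15, a stress-induced cytokine, was detected on all 6 sorted and 0 treated arrays. It was at least 6.65-fold lower in treated than in negative cells. Its limma adjusted p of 1e-05 rests on treated values below detection, and the gene passed the filter through the sorted arrays, so that p is no further support. The glycine transporter gene Slc6a9 fell by 1.65 ± 0.20 (adjusted p = 0.000117), and Gpt2, which makes alanine in mitochondria, by 1.85 ± 0.24 (adjusted p = 0.000194). TGATGNAA was present in 4 of 12 promoters of this list, against 2.66% of 8643 tested genes with a promoter entry. These genes were listed as ATF4 targets, so this excess was in part fixed by their choice.

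Genes upstream of ATF4 were called in both directions. Of 11 listed eIF2 kinase, phosphatase and eIF2B genes, 9 were tested, and the kinase gene Eif2ak4 was not among them. Of the 9, 4 rose and 1 fell (median 0.34), where 20.1% of all genes rose and 19.9% fell. Eif2ak2, the kinase PKR that responds to double-stranded RNA, was at 6.95, 6.96 and 7.12 in negative and 9.09, 9.24 and 9.17 in treated cells and rose by 2.16 ± 0.18 (adjusted p = 1.47e-05). Eif2ak1, the kinase HRI, rose by 0.61 ± 0.12 (adjusted p = 0.00255), and the eIF2B subunit genes Eif2b1 and Eif2b2 by 0.51 and 0.37. Eif2ak3, the ER stress kinase PERK, differed by −0.14 ± 0.19 (adjusted p = 0.597) and was not called, and the eIF2B subunit gene Eif2b3 differed by −0.33 ± 0.11 (adjusted p = 0.0394); both were named after their values were seen. Of 13 other serine, glycine, folate and proline enzymes, 4 rose and 2 fell, beside the same shares of all genes. Their median was 0.25, and 0.12 in the deposited values. Shmt1, the cytosolic partner of Shmt2, rose by 0.71 ± 0.14 and Mthfd1, a cytosolic folate enzyme, fell by 0.75 ± 0.18 (adjusted p = 0.00279 and 0.00679). Oat and Prodh, which link proline and ornithine to glutamate, rose by 1.42 ± 0.13 and 0.75 ± 0.22 (adjusted p = 2.59e-05 and 0.0215). Tyms, thymidylate synthase, also named after its values were seen, rose by 0.79 ± 0.25 (adjusted p = 0.0289).

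**Figure D4:**
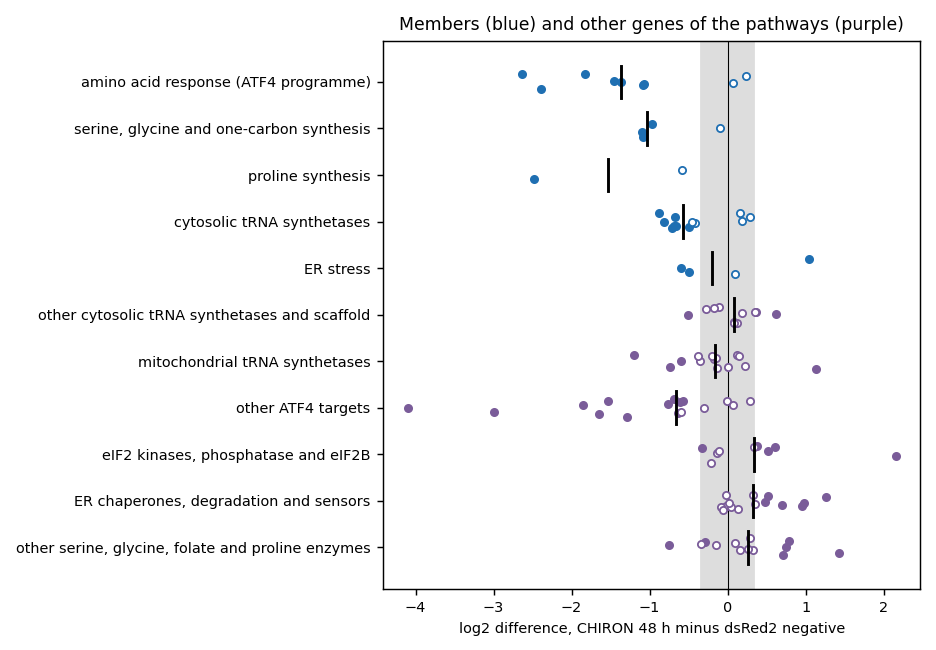
Log2 difference between CHIRON-treated and dsRed2 negative cells for each gene of the member lists (blue) and of further pathway lists (purple); filled points have an adjusted p below 0.05, black bars are list medians and the grey band spans the 25th to the 75th percentile of all genes tested (−0.34 to 0.33). Medians of the ATF4, serine, proline and 12 member synthetase lists and of the further ATF4 targets lie left of the band. Those of the other cytosolic and of the mitochondrial synthetases lie within it. The median of the eIF2 list lies just beyond its right edge.

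The comparison with dsRed2 positive cells shares its treated arrays with the one above. There 22 of the 31 genes fell and 1 rose, where 20.5% of all genes fell and 20.5% rose. The median was −0.72, against −0.02 for all genes. All 21 genes called against negative cells were also called here, with the addition of Eprs (−0.60 ± 0.15, adjusted p = 0.0101) and Nars (−0.61 ± 0.21, adjusted p = 0.0357). Chac1 fell by 2.90 ± 0.40, Trib3 fell by 2.53 ± 0.35, Pycr1 fell by 2.38 ± 0.13 and Asns fell by 1.46 ± 0.13. Xbp1 rose by 0.83 ± 0.16 (adjusted p = 0.00197). Ddit3 fell by 1.38 ± 0.15 (adjusted p = 7.25e-05). Single arrays decided 4 of these calls: Nupr1 was lost without positive replicate 3 or treated replicate 1 or 2, Cars and Nars without positive replicate 2 or 3 or any treated array, and Herpud1 without any positive array or without treated replicate 1 or 2. With median centring 16 genes fell and 1 rose, where 1417 of all 13204 genes fell and 2719 rose. The calls of Nupr1, Cars, Eprs, Nars, Herpud1 and Ppp1r15a were then lost.

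Between dsRed2 positive and dsRed2 negative cells none of the amino acid response genes passed the threshold. Limma on all 9 arrays called 0 of the 31 genes and 0% of all genes (lowest adjusted p = 0.9998), with 1 of the 31 and 370 of 13204 genes at an unadjusted p below 0.05. The median difference was 0.10, against 0.01 for all genes, and it ranged from −0.02 to 0.19 when each array was left out in turn. Positive and negative arrays with the same replicate number deviated together, so a paired fit of these 6 arrays is given too. It called 0 of the 31 genes, against 3 of all genes (0.0227%), with 2 of the 31 and 1210 genes at an unadjusted p below 0.05; the lowest adjusted p among the 31 was 0.313. The gene with the lowest unadjusted p was Ddit3 in both fits. It differed by −0.45 ± 0.15 (adjusted p = 0.9998; 0.313 in the paired fit), with −0.45, −0.58 and −0.32 in the pairs, and its second probe differed by −0.41. Chac1 had pair differences, positive minus negative, of 0.42, 0.26 and 0.11, opposite in sign to Ddit3, and an adjusted p of 0.507 in the paired fit.

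Replicate number separated several of these genes on the sorted arrays. In the paired fit, limma's F test for replicate number called 8 of the 31 genes (Chac1, Trib3, Nupr1, Shmt2, Cars, Atf5, Wars and Nars), where 6.1% of all genes were called. At an unadjusted p below 0.05 there were 16 of 31 (51.6%), against 26.7% of all genes. Chac1 lay lower on replicate 1 than on the mean of replicates 2 and 3 by 1.24 in negative and 1.01 in positive cells (adjusted p = 0.00905). For Trib3 the same gaps were 0.91 and 1.04 (adjusted p = 0.0112), for Nupr1 0.98 and 0.68 (adjusted p = 0.0167), for Shmt2 0.67 and 0.81 (adjusted p = 0.0193) and for Atf5 0.56 and 0.90 (adjusted p = 0.0239). Replicate 1 lay below the mean of the others in both sorts for 24 of the 31 genes, against 33.8% of all genes. The gaps were smaller for Asns and Cebpb, which were not called, with −0.03 and 0.18 for Asns and 0.08 and 0.09 for Cebpb. This test and the choice of replicate 1 were made after the values were seen, and the labels do not say what the arrays of 1 number share.

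**Figure D5:**
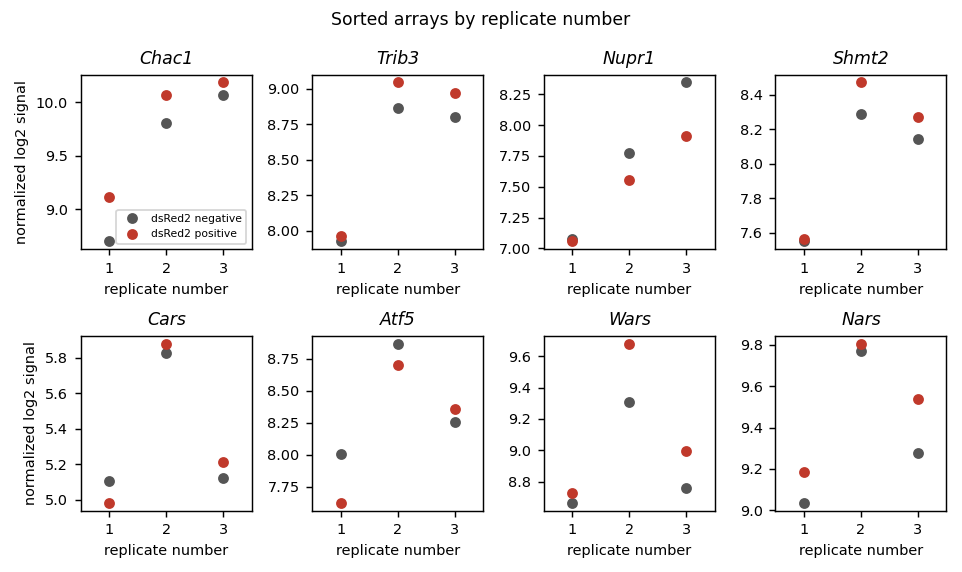
Normalized log2 signal (vertical axis, a separate scale for each gene) of the 8 genes called for replicate number, on the 3 dsRed2 negative (grey) and 3 dsRed2 positive (red) arrays, by replicate number. In each panel the same-numbered arrays lie near each other, and replicate 1 is the lowest or close to the lowest.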

How the data were processed

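RNA of 9 samples (3 groups of 3) was measured on Illumina bead arrays. Per the labels' protocols, an RNeasy kit was used for extraction and a TotalPrep kit for amplification and labelling with biotin. The deposited signal intensity per probe is on a linear scale and not normalized, per the file headers, and a detection p-value per probe and array was deposited beside it, per the file headers. A table of deposited log2 values for the same arrays exists, and the submitters' processing notes name lumi for it; how lumi was set is not given in the sources used here. Its columns had medians of 6.09 to 6.10 and slopes of 0.95 to 1.10 on log2 signal, so scale and direction match. It served as an alternative.

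Background was removed from the 45281 probes' signals by normexp, fitted from the detection p-values (offset 16), followed by quantile normalization and log2 (neqc settings; limma 3.58.1, R 4.3.3). Probes with a detection p below 0.05 on at least 3 arrays were kept (19074). Symbols were updated through unambiguous RefSeq synonyms, and each of 13204 genes was represented by its brightest passing probe. Limma's lmFit and eBayes used all 9 arrays with group as the term, two-sided, with Benjamini-Hochberg adjustment over all genes. The same code was tested on simulated data. Where the dimmer group detected a gene on 0 arrays, the fold is a bound from the lowest detected signal. The number of arrays limits the precision.

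Same-numbered positive and negative arrays correlated in their deviations from group means at 0.54, 0.58 and 0.35 across genes, which pairs them on the evidence of the data; the values with same-numbered treated arrays were −0.14 to 0.10. Treated replicates 1 and 2 were the closest pair of arrays (SD of log2 differences over 1321 bright genes 0.121). The next pair, positive and negative replicate 1, had 0.138, and arrays within a sorted group had 0.200 to 0.285. Whether treated replicates 1 and 2 come from 1 culture is not said. They were also averaged as 1 sample, which gave 19 called members against negative cells instead of 21, and 19 against positive cells instead of 23.

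The members and lists were chosen with earlier results of these data known. Full values are given for up to 4 called members per list with the largest differences from negative cells and for members with an unadjusted p below 0.05 in the sort; of each other list, up to 4 genes with the smallest p are named. Asns, Atf4 and other members beyond these were described after their values were seen. Promoter sequences are from RefSeq (GRCm38.p6). Some genes and sites counted in the lists are not reported here by name or sequence.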

Additional observations from a re-analysis of the deposited data

How the results depend on the processing

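Settings tried were the background correction, scaling, deposited values, detection filter, probe rule, replicate number as a term, arrays in the fit, array weights, averaging of treated replicates 1 and 2, and leaving out each array. With median centring 13 members were called against negative cells instead of 21, where 4099 of all genes were called instead of 5280. The members' median was then −0.45 instead of −0.67. Leaving out each array in turn gave 17 to 22 called members and medians from −0.79 to −0.52 against negative cells, 19 to 23 and −0.80 to −0.69 against positive cells, and 0 with medians from −0.02 to 0.19 in the sort. With replicate number as a block on all 9 arrays, 22 members were called against negative cells, with Nars added (adjusted p = 0.033), and 23 against positive cells; the paired fit of the 6 sorted arrays called 0 and changed no other member call. Fitting each probe on its own, a choice made after seeing the data, called the same number of member genes, 21, with 32 of 50 member probes lower, against 19.9% of all probes, and 1 higher. Of 19 settings, Cars kept its call against negative cells in fewer than the others: it was lost without negative replicate 2 (−0.48), without any 1 of the treated replicates, without positive replicate 3, with no background correction (−0.19), with the deposited values (−0.21), with no filter, with median centring and with treated replicates 1 and 2 averaged. Herpud1 was lost in 9 of the settings, Gars and Ppp1r15a without negative replicate 2 and with median centring. Against positive cells Nupr1 was lost without positive replicate 3 or without treated replicate 1 or 2. Rescaling and stricter detection for the further pathway lists were also added after seeing the data. The 15 members given in full by the naming rule kept their direction in each setting. Other members called against negative or positive cells kept theirs too. For members that were not called, direction was not followed. Signals near background limit Cars, Yars, Hspa5 and Psph.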
